A study of Homo sapiens with 24 samples.

Results

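The genes described here are 8 parts of one switch: the protein kinase genes AKT1 and AKT2, the gene of the kinase that activates them (PDPK1), and 5 phosphatase genes that oppose them (INPP5D, INPP4A, INPP4B, PHLPP1 and PHLPP2). They were taken by symbol from 2 tables of normalized read values, 1 for each cell line, and all 8 were found among the 35587 symbols of each table. RNA was measured in MOLM14 and OCI-AML2, established human cell lines of acute myeloid leukaemia, in 24 libraries that form 6 groups of 4. Each line was kept for 24 h with the solvent DMSO, with AZ2 or with ARM165; the labels name no genetic change in any group. The title of the series concerns PI3K gamma and AKT signalling in this leukaemia and a degrader molecule. The labels state neither the doses, nor which of the compounds is the degrader, nor whether the replicates were separate cultures, so p-values measure the spread between these libraries only.

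PI3K adds a phosphate to a membrane lipid, and AKT and PDPK1 bind that lipid through their pleckstrin homology domains. PDPK1 phosphorylates AKT there, mTOR complex 2 adds the other activating phosphate, and AKT then drives growth, survival and glucose use. Phosphatases act against this at separate steps: INPP5D, INPP4A and INPP4B remove phosphates from the lipids that recruit AKT, while PHLPP1 and PHLPP2 remove a phosphate from AKT itself. All of these steps are protein modifications, and the values below are RNA levels only.

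The promoter windows of the AKT and PHLPP genes are shown because each pair of related genes moved together with ARM165, the AKT pair down and the PHLPP pair up. They come from RefSeq, build GRCh38.p14, which holds windows of 300 bases (250 before the start site, 50 after) for 8 of the 8 genes, and the window furthest upstream was taken where a gene has several. The window of AKT1 is chr14:104795699-104795998 on the minus strand and that of AKT2 is chr19:40285296-40285595 on the minus strand. The window of PHLPP1 is chr18:62715291-62715590 on the plus strand and that of PHLPP2 is chr16:71724652-71724951 on the minus strand. Capitals mark GC boxes (GGGCGG or, on the other strand, CCGCCC) and CCAAT boxes (CCAAT or ATTGG), and each sequence runs 5′ to 3′ on the gene's strand.
AKT1: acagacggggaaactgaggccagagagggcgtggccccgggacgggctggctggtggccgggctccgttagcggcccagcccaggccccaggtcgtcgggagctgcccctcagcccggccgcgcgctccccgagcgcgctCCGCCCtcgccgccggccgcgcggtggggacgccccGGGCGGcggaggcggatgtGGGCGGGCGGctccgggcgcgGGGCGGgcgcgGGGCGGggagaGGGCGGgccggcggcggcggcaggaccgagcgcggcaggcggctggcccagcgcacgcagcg
AKT2: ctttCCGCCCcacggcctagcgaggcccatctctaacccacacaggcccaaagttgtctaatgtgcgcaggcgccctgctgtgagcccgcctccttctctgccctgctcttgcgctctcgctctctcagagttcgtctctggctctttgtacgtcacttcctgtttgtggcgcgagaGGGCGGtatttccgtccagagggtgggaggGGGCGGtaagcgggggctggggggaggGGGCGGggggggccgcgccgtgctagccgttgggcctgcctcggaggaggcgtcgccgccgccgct
PHLPP1: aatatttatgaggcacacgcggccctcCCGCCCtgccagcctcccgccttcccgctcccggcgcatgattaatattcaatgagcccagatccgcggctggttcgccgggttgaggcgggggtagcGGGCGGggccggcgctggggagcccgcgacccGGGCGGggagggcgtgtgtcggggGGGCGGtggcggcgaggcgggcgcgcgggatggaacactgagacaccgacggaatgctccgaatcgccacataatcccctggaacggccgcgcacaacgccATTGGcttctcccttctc
PHLPP2: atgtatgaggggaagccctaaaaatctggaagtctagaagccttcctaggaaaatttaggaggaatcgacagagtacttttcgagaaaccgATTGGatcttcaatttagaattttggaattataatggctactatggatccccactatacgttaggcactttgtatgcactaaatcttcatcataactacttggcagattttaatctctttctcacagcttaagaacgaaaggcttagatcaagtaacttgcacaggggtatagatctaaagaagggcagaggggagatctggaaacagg

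The AKT1 window holds 7 GC boxes, of which the first base of the nearest lies at -12 from the start site, and a pair of them (at -55 and -51) overlap. The AKT2 and PHLPP1 windows hold 4 each, and the PHLPP2 window holds 0. PHLPP1 and PHLPP2 each have 1 CCAAT box. The windows therefore differ within the pair that rose: PHLPP1 is 69.3% G and C, PHLPP2 39.7%, against a median of 58.7% over all 35116 windows. Over the 8 genes, 5 windows hold a GC box (AKT1, AKT2, PDPK1, INPP5D and PHLPP1) and 3 a CCAAT box (PDPK1, PHLPP1 and PHLPP2). The shares of all windows are 45% and 34.6%. Searched on both strands, the FOXO site GTAAACA (3.42% of all windows), the E-box CACGTG (7.26%) and the AP-1 site TGACTCA (4.95%) are in 0 of the 8 windows. The same holds for the CRE TGACGTCA (1.85%), the ETS site CCGGAAGT (4.14%) and the E2F sites TTTCCCGC or TTTGGCGC (2.27%). These counts are of the window furthest upstream. Over all 16 windows of the 8 genes, a GC box is in some window of 6 genes (INPP4A added) and a CCAAT box in some window of 6 (AKT2, INPP4A and INPP4B added). The E-box is then in a window of 1 gene, INPP4B, at -54 from that start site, and the other 5 motifs stay at 0. No binding was measured in this series.

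Depth and cell identity were checked once for the whole series. The libraries held 35.4 M to 59.0 M estimated reads, with 18889 to 19699 symbols above 0. In such scaled bulk values fewer cells of a type and less RNA per cell cannot be told apart, and a change is relative to the other genes of the library. Whether the lines were scaled together is not given, so levels are not compared between them, nor between genes, whose lengths differ. Of 16 myeloid markers, 14 in MOLM14 and 13 in OCI-AML2 had a mean of at least 50 with DMSO. Their summed level was 93922 to 98199 with DMSO and 62987 to 70868 with ARM165 in MOLM14, and 116431 to 125450.0 and 67517 to 69672 in OCI-AML2. Within that list LYZ, which encodes lysozyme, went from a mean of 20319 to 2677 in MOLM14, while PTPRC, the common leukocyte antigen, went from 2392 to 6229. Of 6 T and NK cell markers only NKG7 had a mean of at least 50 in any group, and the sum of the list ran from 374 to 593 in MOLM14 and from 527 to 916 in OCI-AML2. The group means of CD3E and CD2 were at most 1.86. The sum of 5 B cell markers, mainly PAX5, ran from 323 to 714 in MOLM14 and from 41.5 to 133 in OCI-AML2, and that of 5 erythroid markers from 0.193 to 24.3 and from 0.00 to 50.9. Of 8 epithelial and fibroblast markers only KRT8 and KRT18, in MOLM14, had a mean of at least 50. Their list summed to 2071 to 2381 with DMSO and 3613 to 3903 with ARM165 in MOLM14, and to 28.0 to 79.7 in OCI-AML2, where KRT19 was at 0 throughout. The part of these markers in the changes below was not tested.

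Changes were tested with limma on log2(value + 1), and a gene was called at a Benjamini-Hochberg adjusted p under 0.05 over all genes kept, 15288 in MOLM14 and 15377 in OCI-AML2. With ARM165 against DMSO, 7 of the 8 genes were called in MOLM14, where 69.5% of all genes were called. In OCI-AML2, 8 of 8 were called, against 65.8% of all genes. A call by itself therefore says little about these genes, since most genes of both lines passed. In MOLM14, 4 rose (PDPK1, INPP4A, PHLPP1 and PHLPP2, against 35.5% of all genes) and 3 fell (AKT1, AKT2 and INPP5D, against 34%). In OCI-AML2, 4 rose (PDPK1, INPP4B, PHLPP1 and PHLPP2, against 34.2%) and 4 fell (AKT1, AKT2, INPP5D and INPP4A, against 31.6%). The median size of the 8 changes was 0.54 on the log2 scale in MOLM14 and 0.69 in OCI-AML2, beside 0.63 and 0.66 over all genes tested.

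AKT1 and AKT2 fell in both lines. AKT1 encodes the AKT isoform tied most to survival and growth, and AKT2 the one tied most to insulin action. In MOLM14, AKT1 read 6029.7, 5338, 5696 and 5762 with DMSO, 5522, 5537, 5531 and 6163 with AZ2 and 2459, 2884, 2969 and 2588 with ARM165. All 4 ARM165 libraries lay below the 8 others, and the DMSO and AZ2 libraries overlapped. The mean went from 5706 ± 285 to 2725 ± 241 (SD, n = 4), a log2 change of -1.07 ± 0.063 (SE, limma adjusted p = 4.96e-10). In OCI-AML2, AKT1 read 9699.6, 8163, 9506 and 9213 with DMSO, 9054, 9120.2, 9556 and 9984 with AZ2 and 6289, 6947, 6787 and 6266 with ARM165. The groups again split into ARM165 below and the others above, with a smaller distance. The mean went from 9146 ± 685 to 6572 ± 347 (SD, n = 4), a log2 change of -0.47 ± 0.061 (SE, limma adjusted p = 4.41e-06). In size the AKT1 change exceeded that of 73.2% of all genes in MOLM14 and of 37.5% in OCI-AML2.

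In MOLM14, AKT2 read 2853, 2692, 2718 and 2924 with DMSO, 2848, 2948, 2884 and 2793 with AZ2 and 1343, 1394, 1491 and 1449 with ARM165. The ARM165 libraries stood below all others by more than the width of either group. The mean went from 2797 ± 110.3 to 1419 ± 64.4 (SD, n = 4), a log2 change of -0.98 ± 0.048 (SE, limma adjusted p = 6.07e-11). In OCI-AML2, AKT2 read 2124, 1649.9, 1858 and 1842 with DMSO, 1765, 1885, 1874 and 1847 with AZ2 and 1063, 1271, 1231 and 1079 with ARM165. The DMSO libraries were wider here, with replicate 1 highest and replicate 2 lowest, and still did not overlap ARM165. The mean went from 1869 ± 195 to 1161 ± 106 (SD, n = 4), a log2 change of -0.69 ± 0.081 (SE, limma adjusted p = 1.78e-06). Within the ARM165 libraries of OCI-AML2, replicates 1 and 4 were the lower ones for AKT1 and for AKT2.

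**Figure D1:**
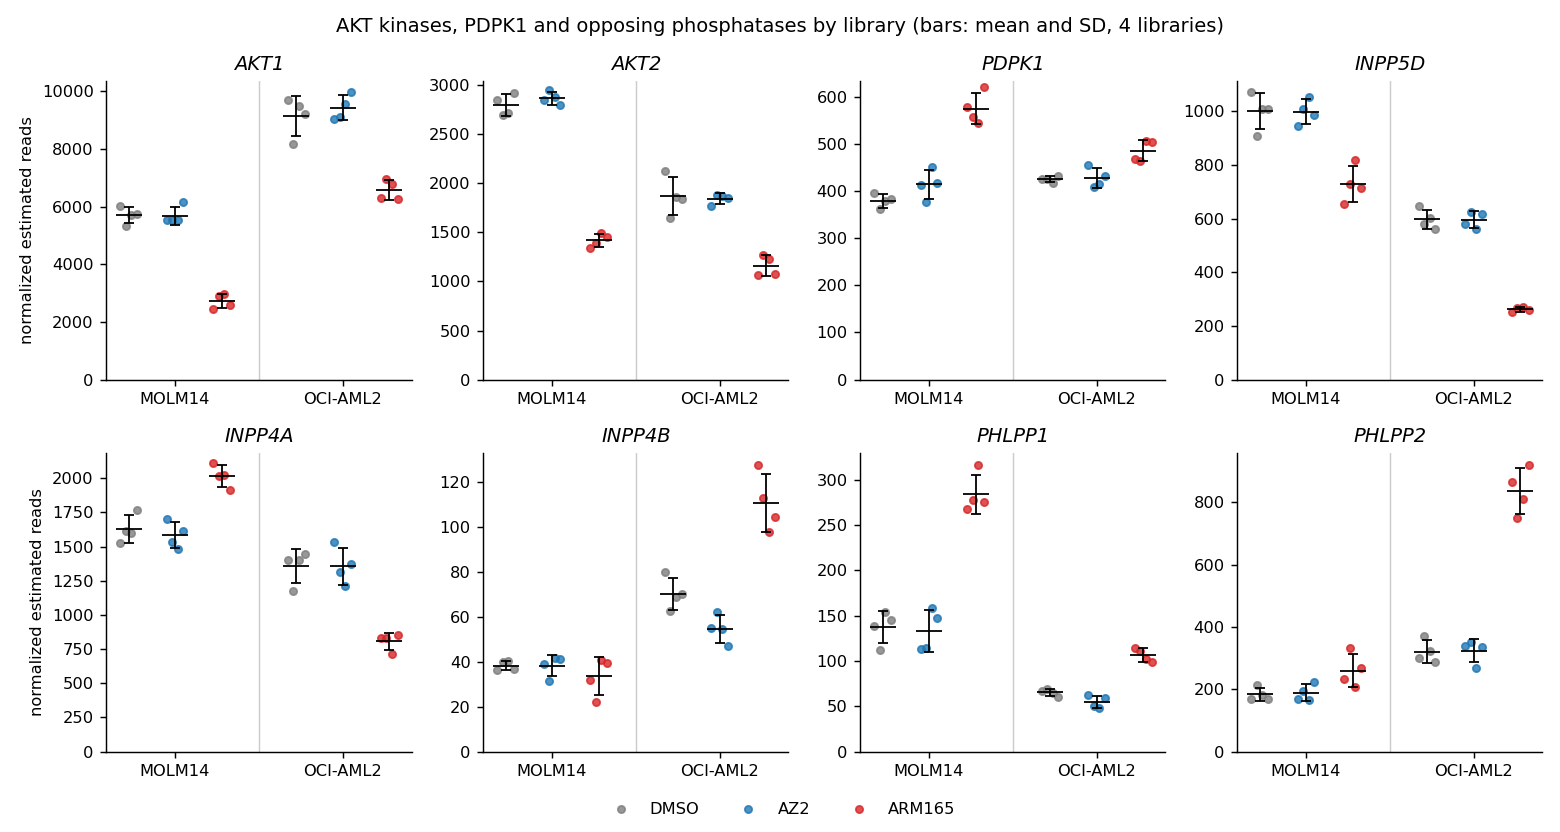
Each point is 1 library, and each panel shows 1 gene in normalized estimated reads on an axis that starts at 0, with the mean and SD of 4 libraries. In both lines the ARM165 points of AKT1, AKT2 and INPP5D lie below the others and those of PHLPP1 above, while INPP4A lies above in MOLM14 and below in OCI-AML2. Whether the lines were scaled together is not given, so heights are compared within a line only.

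PDPK1, the kinase gene upstream of AKT, went the other way. In MOLM14, PDPK1 read 395, 361, 378 and 383 with DMSO, 413, 376, 452 and 417 with AZ2 and 578, 557, 546 and 621 with ARM165. Every ARM165 library lay above the 8 others. The log2 change was 0.60 ± 0.080 (SE, limma adjusted p = 7.07e-06), from a mean of 379 ± 14.1 to 575 ± 33.1 (SD, n = 4). In OCI-AML2, PDPK1 read 426, 425, 418 and 433 with DMSO, 456, 409, 416 and 432 with AZ2 and 469, 464, 505 and 504 with ARM165. The ARM165 libraries were the highest again, but the lowest of them was only a little above the highest AZ2 library. Limma put the log2 change at 0.19 ± 0.078 (SE, limma adjusted p = 0.0455), from a mean of 426 ± 6.05 to 486 ± 22.3 (SD, n = 4), and this call was lost on leaving out any 1 library other than ARM165 replicate 2 or AZ2 replicate 1 (10 of 12, adjusted p up to 0.108) and with quantile normalization (0.071, adjusted p = 0.423).

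PDPK1 has a near-identical copy, PDPK2P, on its own row of both tables, and reads of the pair may be split between the rows. PDPK2P was at 593 ± 101 with DMSO and 583 ± 42.0 with ARM165 in MOLM14 (SD, n = 4; log2 change -0.012, limma adjusted p = 0.931). In OCI-AML2 it was at 156 ± 51.0 and 98.4 ± 6.44 (log2 change -0.59, adjusted p = 0.0498), so the copy fell where PDPK1 rose. The sum of both rows in OCI-AML2 was 632, 511, 575 and 609.7 with DMSO and 560.0, 568, 609 and 599 with ARM165, and the ARM165 values lie inside the DMSO range. Its log2 change was 0.0092 (limma adjusted p = 0.933); the sum was not called. In MOLM14 the sum was 897, 888, 998 and 1108 with DMSO and 1196, 1097, 1166 and 1175 with ARM165, and its log2 change of 0.26 was still called (adjusted p = 0.00686) but smaller than for PDPK1 alone.

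INPP5D encodes SHIP1, a lipid phosphatase found mainly in blood cells, and it fell in both lines. In MOLM14, INPP5D read 1072, 910.1, 1009.8 and 1011 with DMSO, 945, 1010.1, 1055 and 985 with AZ2 and 654, 728, 819 and 716 with ARM165. The ARM165 libraries were the 4 lowest, with their highest still below the lowest of the others. This was a log2 change of -0.46 ± 0.076 (SE, limma adjusted p = 5.87e-05), from 1001 ± 67.2 to 729 ± 68.1 (SD, n = 4). In OCI-AML2, INPP5D read 646, 579.9, 604 and 562 with DMSO, 579, 626, 562 and 619 with AZ2 and 251, 266, 271 and 260.0 with ARM165. Here the ARM165 libraries lay close together, far under the rest. The log2 change was -1.19 ± 0.082 (SE, limma adjusted p = 3.48e-09), from 598 ± 36.2 to 262 ± 8.48 (SD, n = 4), and exceeded in size that of 74.8% of all genes. The summed myeloid markers given above were also lower with ARM165 in both lines, but single markers went both ways. With ARM165, 9 of 16 had a higher mean than with DMSO in MOLM14 and 6 of 16 in OCI-AML2. Of 15 markers tested by limma in each line, 6 rose and 6 fell in MOLM14, and 3 rose and 7 fell in OCI-AML2. Their part in the INPP5D change was not tested.

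INPP4A and INPP4B encode related lipid phosphatases that act one step after SHIP1, and in OCI-AML2 they went opposite ways. In MOLM14, INPP4A read 1527, 1615, 1597 and 1771 with DMSO, 1700.1, 1537, 1484 and 1614 with AZ2 and 2114, 2018, 2023 and 1918 with ARM165. The ARM165 libraries were the 4 highest. Limma put the log2 change at 0.31 ± 0.059 (SE, limma adjusted p = 0.000231), from 1628 ± 103 to 2018 ± 80.3 (SD, n = 4). In OCI-AML2, INPP4A read 1399, 1173, 1404 and 1448 with DMSO, 1535, 1314, 1212 and 1371 with AZ2 and 833, 832, 717 and 850.2 with ARM165. In this line the ARM165 libraries were the 4 lowest, replicate 3 the lowest of all. This was a log2 change of -0.74 ± 0.090 (SE, limma adjusted p = 2.27e-06), from 1356 ± 124 to 808 ± 61.4 (SD, n = 4). INPP4A was thus called higher in 1 line and lower in the other.

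INPP4B rested on few reads in MOLM14, an estimated 21 in its lowest library. In MOLM14, INPP4B read 36.3, 39.7, 40.1 and 36.9 with DMSO, 39.1, 31.3, 41.5 and 41.0 with AZ2 and 31.9, 22.1, 40.8 and 39.5 with ARM165. The 3 groups overlapped, with ARM165 replicates 2 and 1 below and replicates 3 and 4 among the others. The log2 change was -0.22 with a 95% interval of -0.76 to 0.32 (limma adjusted p = 0.457), which includes 0. Quantile normalization put it at -0.60 with a call (adjusted p = 0.0424). In OCI-AML2, INPP4B read 79.6, 62.6, 68.5 and 69.8 with DMSO, 54.8, 62.2, 54.5 and 46.8 with AZ2 and 127, 113, 97.5 and 104 with ARM165. The ARM165 libraries were all above the others, and the 4 AZ2 libraries were all below the 4 DMSO libraries. The log2 change with ARM165 was 0.65 ± 0.18 (SE, limma adjusted p = 0.00498), from 70.1 ± 7.07 to 110.5 ± 12.9 (SD, n = 4).

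The PHLPP genes, whose products act on AKT itself, rose in both lines. In MOLM14, PHLPP1 read 139, 113, 154 and 145 with DMSO, 113, 114, 158 and 148 with AZ2 and 267, 277, 316 and 275 with ARM165. Every ARM165 library was above the 8 others. Limma put the log2 change at 1.05 ± 0.15 (SE, limma adjusted p = 1.19e-05), from 137 ± 17.7 to 284 ± 21.8 (SD, n = 4). In OCI-AML2, PHLPP1 read 67.3, 69.2, 65.1 and 60.7 with DMSO, 62.5, 49.8, 48.4 and 59.2 with AZ2 and 115, 111, 103 and 98.6 with ARM165. The same split was seen here. This was a log2 change of 0.69 ± 0.17 (SE, limma adjusted p = 0.00243), from 65.6 ± 3.66 to 107 ± 7.40 (SD, n = 4).

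In MOLM14, PHLPP2 read 169, 213, 182 and 169.8 with DMSO, 170.4, 195, 166 and 224 with AZ2 and 233, 333, 208 and 267 with ARM165. ARM165 replicate 3 lay inside the DMSO range and replicate 2 stood highest. The log2 change was 0.49 ± 0.15 (SE, limma adjusted p = 0.0112), from 184 ± 20.6 to 260.2 ± 54.2 (SD, n = 4). With quantile normalization it was 0.28 and not called (adjusted p = 0.129). In OCI-AML2, PHLPP2 read 301, 371, 324 and 289 with DMSO, 338, 351, 269.6 and 335 with AZ2 and 865, 749.9, 810.1 and 920.4 with ARM165. Here the lowest ARM165 library was above the highest of the others by more than the range of any group. Limma put the log2 change at 1.38 ± 0.11 (SE, limma adjusted p = 2.34e-08), from 321 ± 36.5 to 836 ± 73.1 (SD, n = 4), and exceeded in size that of 81% of all genes. PHLPP2 overlaps MARVELD3 on the other strand in GENCODE release 29; the libraries were stranded, but whether counting used strand is not given in the sources used here, and MARVELD3 was at a mean of 12.2 to 31.2 in the 6 groups.

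In counts of libraries, 6 of the 8 genes had ARM165 and DMSO groups that did not overlap in MOLM14 (all but INPP4B and PHLPP2), beside 63.8% of all genes. In OCI-AML2 it was 8 of 8, beside 60.5%.

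With AZ2 against DMSO, limma called 0 of the 8 genes in either line. Over all genes, 0% were called in MOLM14 and 0.111% in OCI-AML2, and 5.88% and 4.77% had an unadjusted p under 0.05, which 0 of the 8 genes had in either line. For AKT1 the log2 change had a 95% interval of -0.14 to 0.13 in MOLM14 and -0.084 to 0.18 in OCI-AML2. For AKT2 the intervals were -0.065 to 0.14 and -0.19 to 0.16. They were wider for the lower genes: -0.37 to 0.26 for PHLPP1 and -0.29 to 0.37 for PHLPP2 in MOLM14. The largest AZ2 change among the 8 was that of INPP4B in OCI-AML2, -0.36 with an interval of -0.74 to 0.026 (adjusted p = 0.996). It was the only one of the 8 whose groups did not overlap (1 of 8 in OCI-AML2, beside 2.67% of all genes, and 0 of 8 in MOLM14, beside 4.43%). The next was PHLPP1 in OCI-AML2, -0.26 with an interval of -0.63 to 0.11. A change inside these intervals cannot be told from none.

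**Figure D2:**
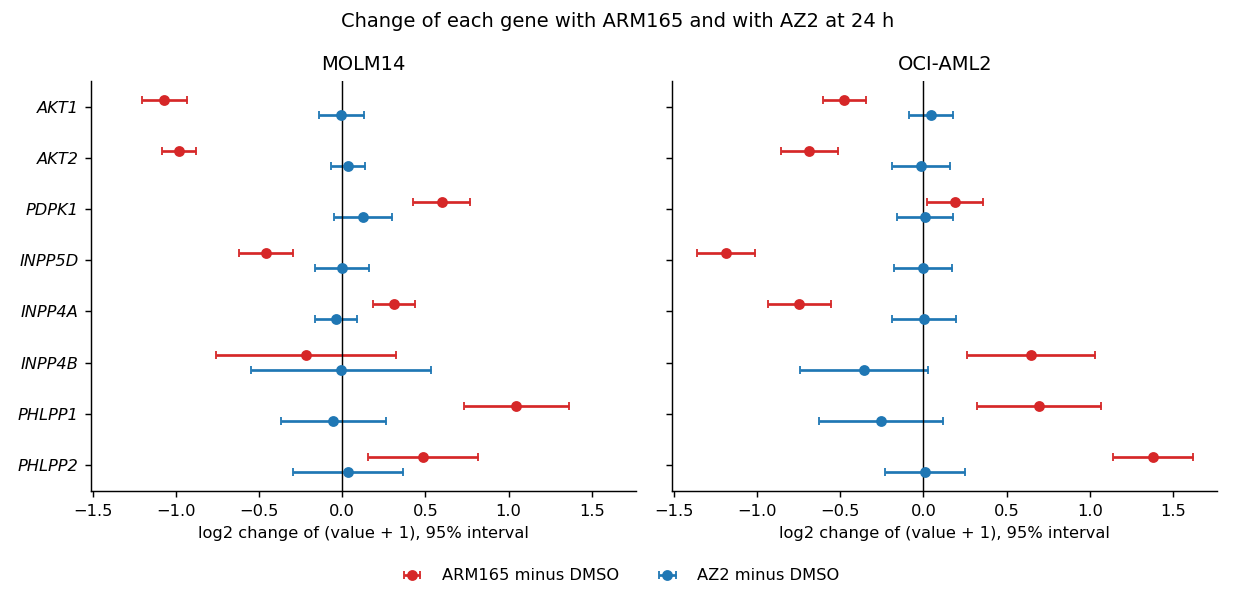
Log2 change from DMSO of each gene with ARM165 (red) and AZ2 (blue), with 95% intervals from limma, in the 2 lines. All 16 AZ2 intervals include 0; with ARM165 the interval of INPP4B in MOLM14 includes 0 and the other 15 do not.

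ARM165 was also set against AZ2, the other compound, at doses that are not given and so not known to match. Limma called 7 of 8 genes in MOLM14 (70.1% of all genes) and 7 of 8 in OCI-AML2 (65.8%). In MOLM14, 4 were higher with ARM165 (36.1% of all genes) and 3 lower (34%); in OCI-AML2, 3 were higher (34.5%) and 4 lower (31.4%). The uncalled gene was INPP4B in MOLM14 (-0.21, interval -0.75 to 0.33) and PDPK1 in OCI-AML2 (0.18, interval 0.013 to 0.35, adjusted p = 0.0548). With quantile normalization INPP4B was called in MOLM14 (-0.62, limma adjusted p = 0.0361). Of the alternatives for PDPK1 in OCI-AML2, 4 gained the call, 17 stayed uncalled and 1 changed sign. The difference was -1.06 for AKT1 and -1.02 for AKT2 in MOLM14, and -0.52 and -0.67 in OCI-AML2. INPP4B in OCI-AML2 differed by 1.00 ± 0.18 (SE, adjusted p = 0.000137), against 0.65 from DMSO, and PHLPP1 by 0.95 against 0.69. PHLPP2 in MOLM14 differed by 0.45 (adjusted p = 0.0173), and this call was lost without ARM165 replicate 2 (adjusted p = 0.0654), without AZ2 replicate 3 (adjusted p = 0.0512) and with quantile normalization.

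The ARM165 change differed between the lines for 7 of the 8 genes, beside 42.4% of the 14287 genes tested. Each difference is the OCI-AML2 change minus the MOLM14 change, from 1 limma fit of 24 libraries. AKT1 fell less in OCI-AML2 (difference 0.59 ± 0.089, SE, adjusted p = 8.44e-06), as did AKT2 (0.29 ± 0.093, adjusted p = 0.013), whose difference missed the threshold after quantile normalization (0.21, adjusted p = 0.0791). PDPK1 rose less in OCI-AML2 (-0.41, adjusted p = 0.00186), a call lost when PDPK2P was added to it (-0.25, adjusted p = 0.0788). INPP5D fell more there (-0.73 ± 0.10, adjusted p = 3.85e-06). INPP4A had the largest difference of the 8, -1.06 ± 0.11 (adjusted p = 3.27e-08), larger in size than that of 85.2% of all genes. PHLPP2 rose more in OCI-AML2 (0.89, adjusted p = 0.000557). For INPP4B, which rose in OCI-AML2 and was at -0.22 and uncalled in MOLM14, the difference was 0.87 (adjusted p = 0.0153). For PHLPP1 the difference was -0.35 with an interval of -0.78 to 0.070 (adjusted p = 0.174), which includes 0 and also differences as large as those of other genes here. For the AZ2 change, 0 of the 8 genes differed between the lines (0.028% of all genes called, 5.22% with an unadjusted p under 0.05 and 0 of the 8).

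**Figure D3:**
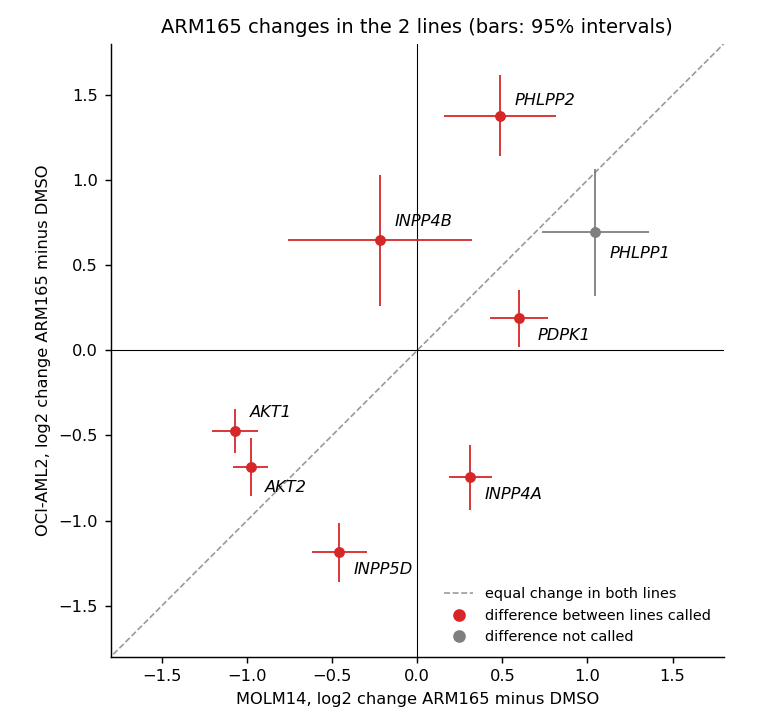
Log2 change with ARM165 in MOLM14 (horizontal) and OCI-AML2 (vertical) with 95% intervals; points off the dashed line changed by different amounts. INPP4A lies right of 0 and below it, at 0.31 and -0.74, and PHLPP1, drawn in grey, is the gene whose difference was not called.

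The balance within each pair of related genes was read as the log2 ratio of their values in the same library, in which the library's scaling factor cancels. The genes differ in length, so only the change of a ratio between treatments is read, and it is a description with no test. The AKT2 to AKT1 ratio was -1.03 ± 0.052 with DMSO, -0.99 ± 0.11 with AZ2 and -0.94 ± 0.10 with ARM165 in MOLM14 (SD, n = 4), and the ranges overlapped. In OCI-AML2 it was -2.29 ± 0.071, -2.35 ± 0.065 and -2.50 ± 0.056, and the ARM165 range (-2.57 to -2.45) lay below that of DMSO (-2.35 to -2.19).

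In OCI-AML2 the INPP4B to INPP4A ratio was -4.27 ± 0.11 with DMSO, -4.64 ± 0.24 with AZ2 and -2.87 ± 0.13 with ARM165 (SD, n = 4). The ARM165 range (-3.03 to -2.71) lay above the others. The DMSO range (-4.37 to -4.13) and the AZ2 range (-4.87 to -4.40) parted only narrowly, at -4.374 and -4.401. In MOLM14 it was -5.41 ± 0.12, -5.38 ± 0.20 and -5.95 ± 0.43, on few reads of INPP4B. The ARM165 range there lay only narrowly below that of DMSO, at -5.603 against -5.585, and overlapped that of AZ2. The PHLPP2 to PHLPP1 ratio went down in MOLM14, from 0.42 ± 0.33 to -0.14 ± 0.36 (SD, n = 4, ranges 0.23 to 0.92 and -0.60 to 0.27, which overlap). It went up in OCI-AML2, from 2.29 ± 0.11 to 2.97 ± 0.19, with AZ2 between them at 2.56 ± 0.18. Its AZ2 range (2.44 to 2.82) overlapped that of ARM165 (2.76 to 3.22) and lay narrowly above that of DMSO (2.16 to 2.42), at 2.436 against 2.424. How often such ranges part over other gene pairs was not computed. With AZ2, limma called 0 of the 8 genes in OCI-AML2. The mean ratios of both phosphatase pairs were thus higher with ARM165 in OCI-AML2 and lower in MOLM14.

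**Figure D4:**
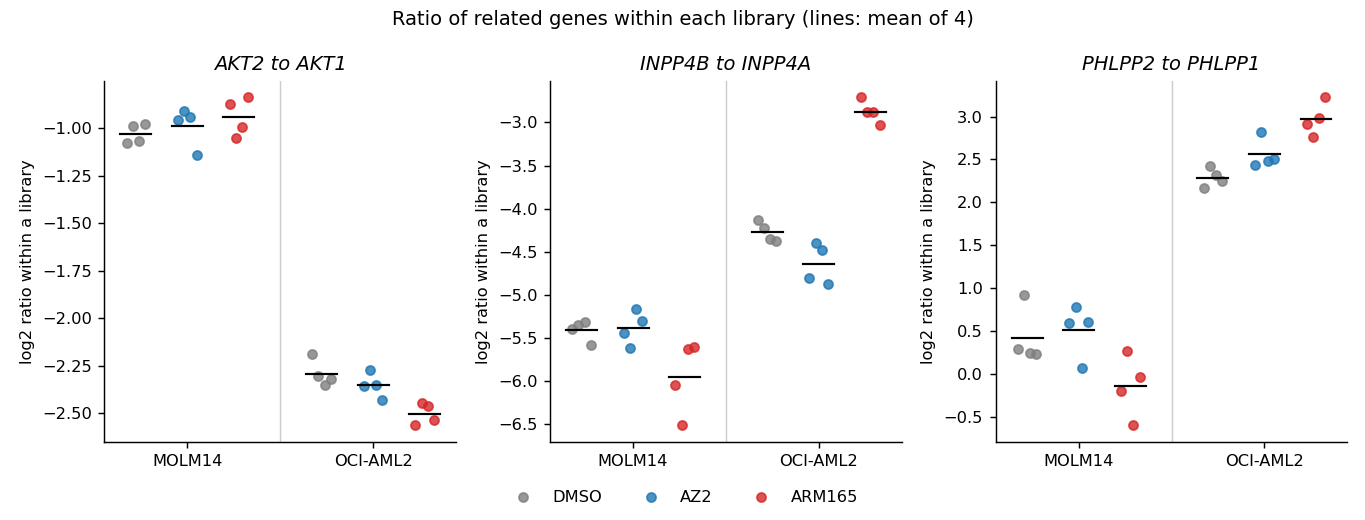
Log2 ratio of AKT2 to AKT1, INPP4B to INPP4A and PHLPP2 to PHLPP1 in each library, with the mean of 4 as a line; the vertical axes do not start at 0. The INPP4B to INPP4A points with ARM165 lie at -3.03 to -2.71 in OCI-AML2 and -6.51 to -5.60 in MOLM14.

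Other genes of the pathway were read from 5 lists chosen for their roles and described by counts and medians. The first holds other lipid and inositol phosphatase genes. Of 25 genes measured in MOLM14, 19 rose with ARM165, 4 fell and 2 did not pass, so 92.0% were called, beside 69.5% of all genes (35.5% higher, 34% lower). In OCI-AML2 the counts over 25 genes were 19, 3 and 3, or 88.0% called, beside 65.8% of all genes (34.2% higher, 31.6% lower). The list's median change was 0.55 in MOLM14 and 0.60 in OCI-AML2. The median over all genes was 0.031 in MOLM14 and 0.034 in OCI-AML2. INPPL1, which encodes SHIP2, the relative of INPP5D, rose by 0.26 and 0.66 in the 2 lines while INPP5D fell. SYNJ2, a synaptojanin, rose by 1.22 and 2.52, and the myotubularin gene MTMR3 by 1.47 and 1.37. PIP4P2 in MOLM14 (1.47) and INPP1 in OCI-AML2 (1.42) were also among the largest rises. Falls were seen for MTMR4 (-0.73 and -1.61), the inositol monophosphatase gene IMPA2 (-1.39 and -0.81) and MTM1 (-0.40 and -0.79).

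Protein phosphatase 2A removes the other activating phosphate of AKT. Of 20 genes measured in MOLM14, 8 rose with ARM165, 6 fell and 6 did not pass, so 70.0% were called, beside 69.5% of all genes (35.5% higher, 34% lower). In OCI-AML2 the counts over 20 genes were 12, 6 and 2, or 90.0% called, beside 65.8% of all genes (34.2% higher, 31.6% lower). The list's median change was 0.065 in MOLM14 and 0.33 in OCI-AML2. Its regulatory subunit gene PPP2R5B rose from 56.8 ± 11.0 to 394 ± 39.2 in MOLM14 and from 83.7 ± 9.08 to 525 ± 47.3 in OCI-AML2 (SD, n = 4; log2 changes 2.79 and 2.64). PPP2R5A rose by 0.87 and 1.02, PPP2R5E by 0.66 in MOLM14 and the catalytic subunit gene PPP2CB by 1.07 in OCI-AML2. PPP2R5D, of the same subunit family, changed by -1.12 and -0.84, and CIP2A, an inhibitor of the phosphatase, by -0.82 and -0.95. PPP2R1B in MOLM14 (-0.56) and PTPA, an activator of the phosphatase, in OCI-AML2 (-0.81) fell too.

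The list of mTOR complex 2 and other AKT partners was mixed. Of 24 genes measured in MOLM14, 13 rose with ARM165, 8 fell and 3 did not pass, so 87.5% were called, beside 69.5% of all genes (35.5% higher, 34% lower). In OCI-AML2 the counts over 24 genes were 11, 6 and 7, or 70.8% called, beside 65.8% of all genes (34.2% higher, 31.6% lower). The list's median change was 0.27 in MOLM14 and 0.26 in OCI-AML2. The largest rise in MOLM14 was TRIB3, a pseudokinase that binds AKT, from 1902 ± 123 to 24894 ± 1836 (SD, n = 4; log2 change 3.71), with 2.07 in OCI-AML2. PHLDA3, whose protein competes with AKT for membrane lipid, rose by 1.86 and 3.50, and TRIB1 by 1.83 and 2.71. HSP90AB1 and HSP90AA1, chaperones of AKT, fell by 1.91 and 1.41 in MOLM14 and by 1.07 and 1.04 in OCI-AML2 on the log2 scale. PRR5 in MOLM14 (-1.23) and DEPTOR in OCI-AML2 (-0.56, adjusted p = 0.0168) fell as well, and the DEPTOR call was lost without ARM165 replicate 2 (adjusted p = 0.0538) or DMSO replicate 2 (adjusted p = 0.0605). RICTOR, the scaffold of mTOR complex 2, rose by 0.78 and 0.84.

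Besides AKT, PDPK1 activates other kinases of the AGC family. Of 22 genes measured in MOLM14, 9 rose with ARM165, 6 fell and 7 did not pass, so 68.2% were called, beside 69.5% of all genes (35.5% higher, 34% lower). In OCI-AML2 the counts over 21 genes were 8, 5 and 8, or 61.9% called, beside 65.8% of all genes (34.2% higher, 31.6% lower). The list's median change was 0.30 in MOLM14 and 0.30 in OCI-AML2. SGK1, a close relative of AKT, rose from 67.4 ± 8.19 to 485 ± 36.3 in MOLM14 and from 59.0 ± 13.8 to 197 ± 30.4 in OCI-AML2 (SD, n = 4; log2 changes 2.83 and 1.74). The protein kinase A gene PRKACB rose by 1.37 and 1.29, RPS6KA2 by 2.23 in MOLM14 and RPS6KA3 by 1.54 in OCI-AML2. The protein kinase C gene PRKCB (-1.07 and -0.75) and PKN3 (-0.66 and -0.57) fell in both lines, PRKCQ in MOLM14 (-0.64) and SGK3 in OCI-AML2 (-0.84).

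The last list holds genes of proteins that AKT phosphorylates. Of 25 genes measured in MOLM14, 18 rose with ARM165, 4 fell and 3 did not pass, so 88.0% were called, beside 69.5% of all genes (35.5% higher, 34% lower). In OCI-AML2 the counts over 25 genes were 15, 5 and 5, or 80.0% called, beside 65.8% of all genes (34.2% higher, 31.6% lower). The list's median change was 0.52 in MOLM14 and 0.74 in OCI-AML2. CDKN1A, which encodes the cell cycle inhibitor p21, rose from 6985 ± 272 to 45344 ± 2398 in MOLM14 and from 373 ± 22.6 to 17106 ± 259 in OCI-AML2 (SD, n = 4; log2 changes 2.70 and 5.52). PEA15 rose by 2.76 and 3.20, EP300, a histone acetyltransferase, by 1.75 in OCI-AML2 and PALLD by 2.50 in MOLM14. SKP2, a ubiquitin ligase subunit, fell in both lines (-1.84 and -1.94), as did ACLY, which makes acetyl-CoA for lipid synthesis (-0.86 and -0.85). TBC1D4 in MOLM14 (-0.57) and TBC1D1 in OCI-AML2 (-0.94), a pair of related regulators of glucose transporter traffic, fell too. With AZ2, limma called 0 genes of any of the 5 lists in either line. At an unadjusted p under 0.05 there were 2 and 2 lipid and inositol phosphatase genes in MOLM14 and OCI-AML2, 0 and 1 of the phosphatase 2A list, 2 and 0 AKT partners, 1 and 0 AGC kinases, and 3 and 2 AKT substrates. Over all genes that share was 5.88% in MOLM14 and 4.77% in OCI-AML2.

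**Figure D5:**
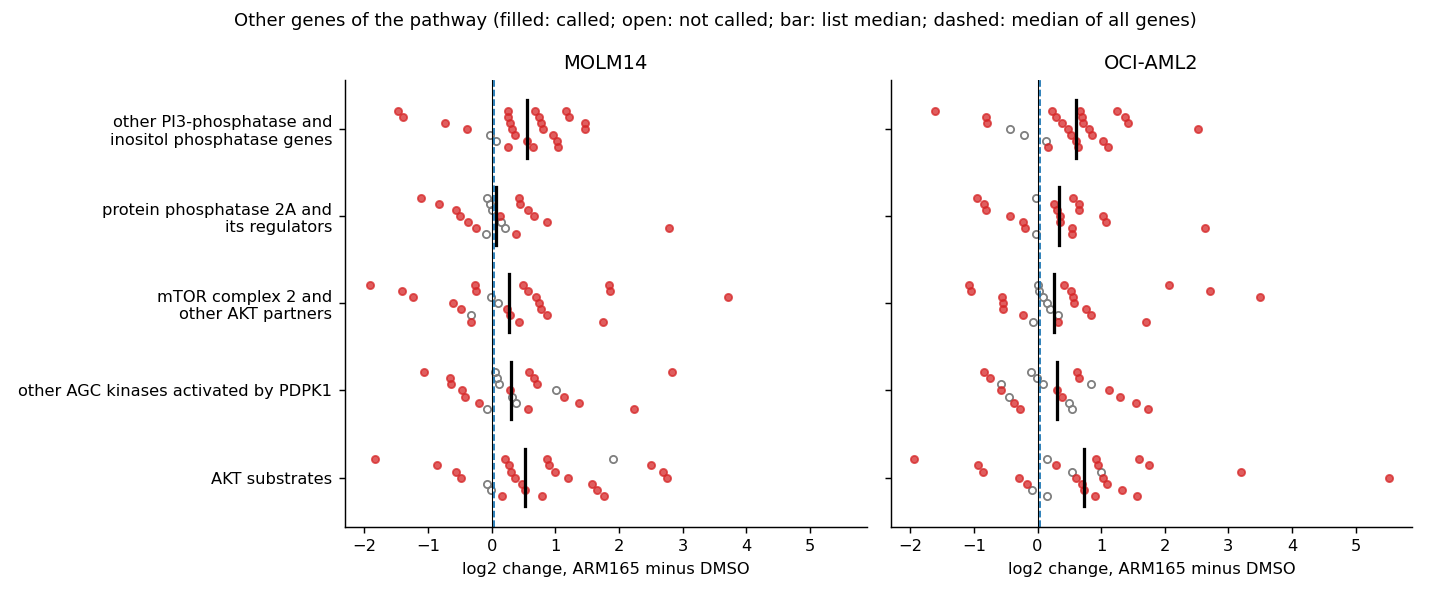
Log2 change with ARM165 against DMSO of every measured gene of the 5 lists (filled, called; open, not called), with the list's median as a bar and the median of all genes as a dashed line. The lipid and inositol phosphatase medians lie at 0.55 and 0.60, and every list holds genes on both sides of 0.

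Genes with the most similar pattern were sought by Pearson correlation of log2(value + 1) over the 24 libraries, each centred on the mean of its line, among 11279 genes (11280 for INPP4B) with a mean of at least 50 in each line. All patterns include the shift between ARM165 and the other groups, so these are descriptions only. For AKT1 the closest were PRPF31 (r = 0.985) and QTRT1 (r = 0.985), for AKT2 PRMT1 (r = 0.989) and DHX37 (r = 0.988), and for PDPK1 ARHGEF3 (r = 0.949) and CD55 (r = 0.947). For INPP5D they were DOK3 (r = 0.988) and KIAA0930 (r = 0.986), for INPP4A STIM2 (r = 0.935) and MBNL1 (r = 0.931), and for INPP4B C1orf198 (r = 0.868) and PHGDH (r = 0.856). For PHLPP1 they were KLHDC7B (r = 0.965) and FAM49A (r = 0.965), and for PHLPP2 WDR48 (r = 0.965) and KLHL9 (r = 0.962). The lowest of these correlations were those of INPP4B.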

How the data were processed

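Polyadenylated RNA of 24 samples was sequenced as stranded libraries, per the labels' protocols. Per the submitters' processing notes the authors used kallisto; its version, the build, the annotation and the way transcripts were summed and scaled are not given in the sources used here. The deposited values are signal values, normalized estimated reads per gene symbol, in 1 table for each line. Raw read numbers were not at hand, so the most common value above 0 in a library was taken as 1 read. Depth, reads per gene and sampling noise rest on that estimate. Only 14.6 to 15.8% of the values above 0 lay within 0.01 of a whole number of reads, so no count model was used. Depth was 35.4 M to 59.0 M estimated reads, and the median SE of a log2 change was 0.099 in MOLM14 and 0.12 in OCI-AML2.

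Groups were read from the sample titles. The filter asked for a value of 10 or more in 4 or more of a line's 12 libraries, and all 8 members passed it in both lines. Tests used limma 3.58.1 (R 4.3.3) on log2(value + 1), a scale that understates changes of low genes, with moderated variances that follow the mean level. A fit covered the 3 treatments of a line, or all 24 libraries for differences between lines. Benjamini-Hochberg adjustment ran over every gene of a comparison, and 95% intervals are unadjusted. The fit was tested on simulated data with independent normal noise and far fewer changed genes than these data hold. That setting differs from the real one, so the test does not vouch for the calls above. In 36 of 36 pairs replicates differed by more than sampling noise. The members, lists and tests were chosen with earlier results of these data known. Named genes of a list are up to 3 that rose and 3 that fell most with ARM165 in each line among called genes with a highest group mean of at least 50, beside INPPL1 and RICTOR; some genes that the rule names are not reported here. Alternatives changed the pseudocount, filter, scaling, variance trend, fitted groups, replicate block or libraries, and 1 chosen after seeing the data added PDPK2P to PDPK1. Promoter windows are from RefSeq. Figures were drawn with matplotlib 3.10.9.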

Additional observations from a re-analysis of the deposited data

Results flagged for a closer look

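In a group of 4 libraries, a library counts as far from the others when its gap to the nearest takes up more of the group's range than Dixon's 95% critical value. Of 48 groups (8 genes in 6 groups), 2 met this, and chance flags about 1 group in 20. With AZ2 in MOLM14, AKT1 was at 6163 in replicate 4, above the other 3 libraries at 5522 to 5537. With ARM165 in OCI-AML2, INPP4A was at 717 in replicate 3, below the other 3 at 832 to 850.2. Without that library the INPP4A change was -0.69 (limma adjusted p = 1.15e-05).

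The ARM165 changes of 7 genes differed between the lines by the test of the difference itself. By the same test 42.4% of all 14287 genes tested were called, so such a call was common. As OCI-AML2 minus MOLM14 the differences were 0.59 for AKT1, 0.29 for AKT2, -0.41 for PDPK1, -0.73 for INPP5D, -1.06 for INPP4A, 0.87 for INPP4B and 0.89 for PHLPP2 on the log2 scale. Across the processing alternatives and left-out libraries the INPP4A difference ran from -1.149 to -0.9999, with an adjusted p of at most 3.5e-07, and that of PHLPP2 from 0.79 to 1.02 (at most 0.00175). The highest limma adjusted p was 9.78e-05 for AKT1, 4.32e-05 for INPP5D and 0.0398 for INPP4B. It was 0.0791 for AKT2 and 0.0788 for PDPK1, so each of these calls was lost in an alternative.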

How the results depend on the processing

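Of 930 alternative values for the 8 genes in comparisons with ARM165, 902 kept their direction and side of the threshold, 21 lost the call, 6 gained one and 1 changed sign. The 902 are not independent checks. Changing the filter, variance trend, replicate block or fitted groups keeps the estimate and can alter only its adjusted p. The same holds for leaving out a library of the treatment not compared. The sign change was PDPK1 in OCI-AML2, ARM165 against AZ2, with PDPK2P added (-0.068). Adding PDPK2P also changed the sign of the uncalled AZ2 change of PDPK1 in MOLM14 (-0.013) and of its AZ2 line difference (0.090). The PDPK1 rise in OCI-AML2 lost its call with median ratio rescaling (0.15, adjusted p = 0.0959), with only 2 groups fitted (adjusted p = 0.0705) and with the replicate block (adjusted p = 0.0757), and the cause was not tested. Quantile normalization moved the median of all genes in MOLM14, ARM165 against AZ2, from 0.04 to -0.062.

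The labels do not say whether replicate numbers pair the samples. Same-numbered libraries correlated at -0.026 to 0.056 in MOLM14 and -0.037 to 0.047 in OCI-AML2 in their deviations from group means. The medians were 0.019 and 0.011, beside -0.0074 and -0.0050 for libraries of different number. Correlations this near 0 do not settle whether the samples were paired. With the replicate block the AZ2 genes called were 10 (17 without it) in OCI-AML2 and 2 (4 without it) for the line difference; without a variance trend they were 7 and 1. In MOLM14 1 gene was called with AZ2 when only those groups were fitted. Leaving out 1 library gave 0 to 3 such genes in MOLM14, 9 to 17 in OCI-AML2 and 0 to 7 for the line difference.

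All other sign changes were of uncalled AZ2 changes near 0. In MOLM14 these were AKT1 with median ratio rescaling (0.00083), INPP5D with it (0.0041) and with quantile normalization (0.00028), and INPP4B with the latter (0.022). In OCI-AML2 they were AKT2 (0.0063, quantile) and INPP5D (0.010, quantile, and 0.012, median ratio), and for the line difference INPP5D (0.0098 and 0.0075). With 1 library left out, AZ2 changes ran, in MOLM14, from -0.044 to 0.022 for AKT1, -0.074 to 0.0020 for INPP4A, -0.049 to 0.083 for INPP4B, -0.046 to 0.033 for INPP5D, -0.14 to 0.021 for PHLPP1 and -0.049 to 0.11 for PHLPP2. In OCI-AML2 they ran from -0.0076 to 0.075 for AKT1, -0.073 to 0.049 for AKT2, -0.067 to 0.054 for INPP4A, -0.031 to 0.035 for INPP5D, -0.022 to 0.030 for PDPK1 and -0.041 to 0.093 for PHLPP2. The AZ2 line differences ran from -0.0027 to 0.090 for AKT1, -0.11 to 0.012 for AKT2, -0.027 to 0.094 for INPP4A, -0.035 to 0.044 for INPP5D and -0.10 to 0.058 for PHLPP2.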
